A study of Mus musculus with 4 samples.

Results

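The genes described here are 10 genes listed for resident marrow macrophages, some of which other marrow cells also make. They serve complement, the uptake of dying cells and the recycling of iron: C1qa, C1qb, C1qc, Serping1, Mrc1, Cd68, Cd163, Axl, Hmox1 and Slc40a1. They were listed by symbol and looked up in the platform's gene table, and each of the 10 had exactly 1 transcript cluster (a set of probes read as 1 value) that carried no other gene. They are 10 of 30706 genes named in this way. RNA of mouse bone marrow was measured on 4 Affymetrix arrays, with 1 array for each of 4 groups labelled control, cisplatin (a DNA-binding platinum chemotherapy drug), Astragalus membranaceus (a medicinal root, called astragalus here) and electro-acupuncture. The marrow was spun out of tibias taken at 2 weeks of treatment, and 6 ug of total RNA went into each labelling reaction. The design text speaks of 6 marrow samples that were mixed, so an array stands for a pool and holds no spread between animals. The labels give no dose, mouse strain, sex or age, and leave unsaid whether cisplatin was also given to the mice of the other 2 treatments. The title of the last sample says electro-acupuncture and its source name says acupuncture only.

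Macrophages that live in the marrow surround maturing red cells, swallow the nuclei these cast off, and clear aged blood cells. Hemoglobin taken up in this way is broken down, its heme is opened by heme oxygenase, and the freed iron is exported through ferroportin to plasma for new red cells. The same cells make C1q, which starts the classical complement pathway on antibody complexes and also marks dying cells for uptake.

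Levels are log2 signals as deposited, so a difference of 1 is 2-fold. A gene was compared when its mean over the 4 arrays reached 5.235, the median of all clusters, which is called the floor below. This left 17197 genes, among them 9 of the 10 described here. C1qa lay under the floor, with a mean of 5.13, and its values are given all the same. With 1 array a group no difference can be set against replicate error, no test was run, and neighbouring levels of a gene cannot be told apart or said to be equal. The number of arrays limits the precision, and each difference is therefore read only against all genes compared. Genes that define marrow were abundant: Alas2, the heme synthesis enzyme of red cell precursors, lay between 14.64 and 15.39, and Mpo, the peroxidase of neutrophil precursors, between 11.70 and 13.75. The defining macrophage genes Adgre1, Siglec1 and Csf1r lay near the floor, between 5.49 and 6.36.

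The 10 genes had their highest level in electro-acupuncture, without exception as deposited. Of all genes compared, 21.8% were highest there. The genes were chosen with earlier results of these data known, and this count after the data were seen. It therefore describes these arrays and tests nothing. Serping1, Hmox1, Mrc1 and Cd68 were at least 2-fold above control in electro-acupuncture, by 4.89-fold, 3.27-fold, 2.66-fold and 2.33-fold. C1qb also passed 2-fold, from a control level under the floor. After quantile normalization the count of genes highest in electro-acupuncture stayed at 10, and after median centring it was 8. Axl then tied with cisplatin and Slc40a1 lay 0.07 below astragalus. Control was the lowest array for 5 genes, namely C1qa, Mrc1, Cd68, Hmox1 and Serping1, against 32.5% of all genes. The count was 7 after quantile normalization and 6 after median centring. The share of all genes lowest in control was not computed under those scalings, so these counts have no background. C1qa is in the counts of 10 and 5 as deposited, but lies under the floor. It is thus not among the genes behind the 21.8% and 32.5%. In bulk RNA, fewer cells of a type and less RNA per cell cannot be told apart.

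**Figure D1:**
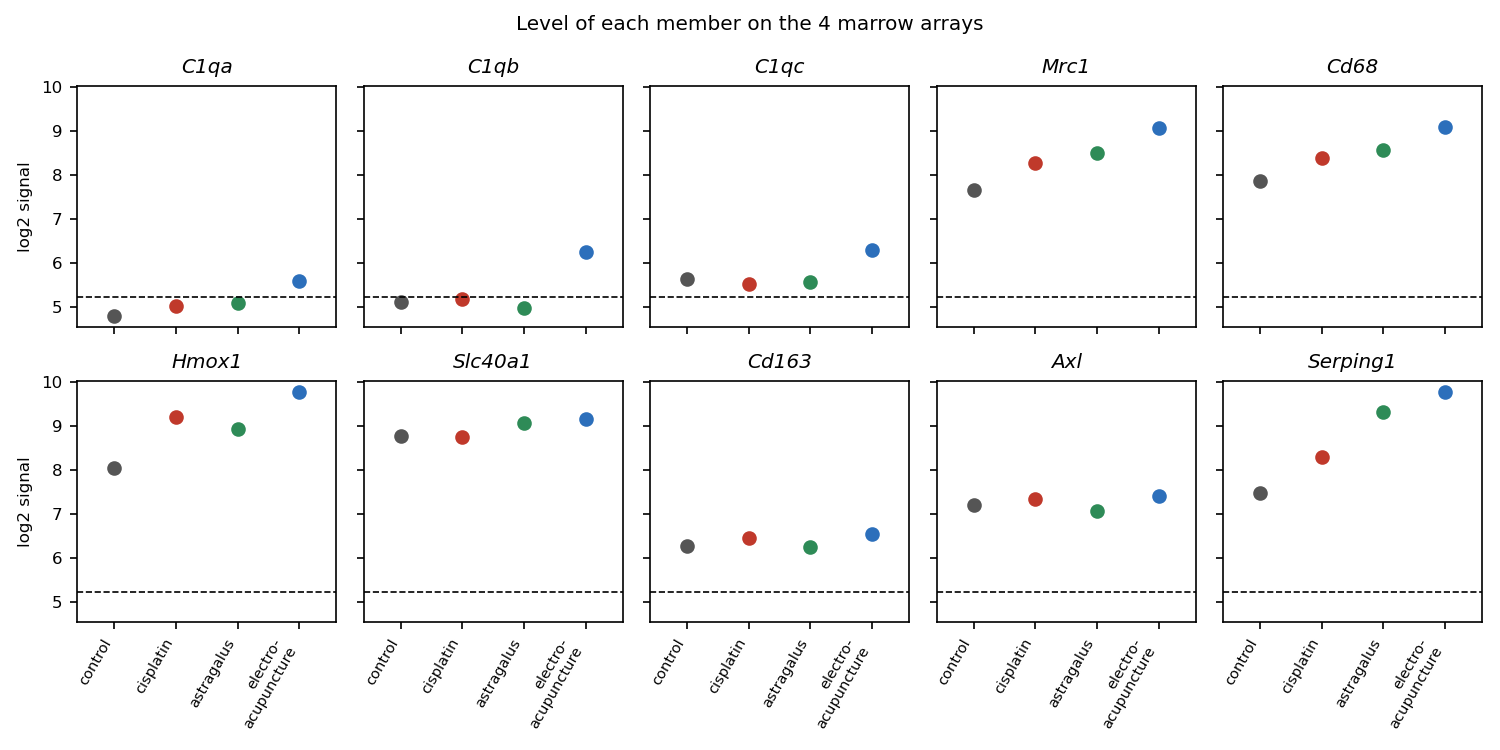
Log2 signal (y axis) of each of the 10 genes on the control, cisplatin, astragalus and electro-acupuncture arrays (1 point per array); the dashed line is the floor of 5.235. The electro-acupuncture point is the highest in every panel, by 1.07 for C1qb and by 0.05 for Axl.

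C1qa, C1qb and C1qc encode the 3 chains of C1q, the recognition molecule of the classical complement pathway, and lie side by side on chromosome 4. C1qb stood at 5.13 (control), 5.18 (cisplatin), 4.98 (astragalus) and 6.25 (electro-acupuncture). C1qc stood at 5.64, 5.52, 5.57 and 6.31 in the same order. C1qa stood at 4.81, 5.02, 5.11 and 5.59. For C1qb and C1qc the first 3 arrays lay close together and electro-acupuncture lay apart. For C1qa the gap was less distinct, since astragalus lay 0.30 above control. The lead of electro-acupuncture over the next highest array was 1.07 for C1qb, 0.67 for C1qc and 0.48 for C1qa. Electro-acupuncture minus cisplatin was 1.07 for C1qb, 0.79 for C1qc and 0.57 for C1qa (log2). The cisplatin array differed from control by 0.05 for C1qb, -0.12 for C1qc and 0.21 for C1qa.

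These signals were weak. C1qb was under the floor on 3 arrays, as was C1qa, so the sizes of their differences are uncertain. C1qb was among the genes compared only through its electro-acupuncture level, and a count that includes it draws on that. Signals this low also vary in other genes: of the 5066 named genes whose mean lay between 5.13 and 5.76, the range of the C1q chains, 92 (1.82%) led in electro-acupuncture by at least 0.5. C1qb and C1qc met that margin and C1qa did not.

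The bases just before the start site of C1qb and C1qc are shown because these chains differed together. They are the 250 bases before the RefSeq start (GRCm38.p6), at chr4:136886201-136886450 for C1qb and chr4:136892915-136893164 for C1qc, both on the minus strand and written 5′ to 3′ along the gene, with GAGGAA, the core that the macrophage factor PU.1 can bind, in capitals on either strand (TTCCTC on the opposite one). C1qa had no entry in the promoter table.
C1qb: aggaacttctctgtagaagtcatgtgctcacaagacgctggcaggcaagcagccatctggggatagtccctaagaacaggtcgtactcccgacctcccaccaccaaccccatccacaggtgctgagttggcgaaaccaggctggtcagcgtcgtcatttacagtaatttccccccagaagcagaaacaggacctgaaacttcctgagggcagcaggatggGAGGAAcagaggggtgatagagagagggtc
C1qc: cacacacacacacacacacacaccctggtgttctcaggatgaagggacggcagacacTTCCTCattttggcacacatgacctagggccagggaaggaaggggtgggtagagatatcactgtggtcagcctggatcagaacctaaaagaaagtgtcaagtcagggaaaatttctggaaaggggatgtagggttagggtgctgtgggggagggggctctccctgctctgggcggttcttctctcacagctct

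Each held the core once, 30 to 25 bases before the start on the gene's own strand in C1qb (positions -30 to -25) and at -193 to -188 on the opposite strand in C1qc. It was present in 23.3% of the 32851 windows of the same length in the table.

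Serping1 encodes C1 inhibitor, the protease inhibitor that inactivates the C1r and C1s proteases bound to C1q. It had the widest span of the 10 genes, 2.29. Its levels were 7.48 (control), 8.29 (cisplatin), 9.32 (astragalus) and 9.77 (electro-acupuncture). The 4 arrays were thus spread out, with astragalus and electro-acupuncture both far above control. The difference from control was 1.75-fold for cisplatin, 3.58-fold for astragalus and 4.89-fold for electro-acupuncture. In electro-acupuncture 32 of 17197 genes were higher than control by more than this. Against cisplatin (2.79-fold) 34 were higher by more.

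Of other complement genes, 22 of the 37 listed had a cluster of their own above the floor. C2 (5.27, 5.06, 5.23 and 5.39 in control, cisplatin, astragalus and electro-acupuncture) reached it only through its electro-acupuncture level. So did Vsig4 (5.33, 5.13, 4.96 and 5.52), and counts that include these genes draw on that. In electro-acupuncture 15 of 22 were above control and 7 below, with a median difference of 0.17 against 0.04 over all genes, of which 53.7% were higher and 7.26% at least 2-fold different. Clu (clusterin, which binds the terminal complement complex) was the 1 gene at least 2-fold different there, at 7.05 (control), 8.06 (cisplatin), 8.19 (astragalus) and 8.28 (electro-acupuncture). Calr, a calcium-binding chaperone that C1q recognises on dying cells, was at 11.50 in control and at 12.32, 12.40 and 12.28 in the others. Cd93, once named a C1q receptor and found on stem cells and endothelium, was at 8.93 (control), 7.83 (cisplatin), 8.46 (astragalus) and 8.37 (electro-acupuncture), and its cisplatin level was 1.10 below control. Itgam, the alpha chain of complement receptor 3 on myeloid cells, was at 11.52, 11.48 and 11.42 and then 10.75 in electro-acupuncture, where it was lowest.

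Mrc1 encodes the mannose receptor, which takes up glycoproteins and is also made by some sinusoidal endothelial cells. Its levels were 7.65 (control), 8.27 (cisplatin), 8.49 (astragalus) and 9.06 (electro-acupuncture). Cd68, a glycoprotein of macrophage lysosomes, had 7.86, 8.39, 8.56 and 9.08 in the same order. Both genes were lowest in control and highest in electro-acupuncture, with cisplatin and astragalus between. Against control, Mrc1 was higher by 1.54-fold (cisplatin), 1.79-fold (astragalus) and 2.66-fold (electro-acupuncture). Cd68 was 1.44-fold, 1.62-fold and 2.33-fold higher. Astragalus exceeded cisplatin by 0.22 for Mrc1 and 0.17 for Cd68 as deposited. The order of those 2 arrays rests on the scaling: the Cd68 difference was -0.03 after quantile normalization and -0.05 with the trend in level removed by loess, and the Mrc1 difference was 0.00 under loess.

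The windows before the starts of Mrc1 and Cd68, whose profiles over the arrays were alike, follow in the same form. Mrc1 lies at chr2:14229164-14229413 on the plus strand and Cd68 at chr11:69666171-69666420 on the minus strand. Capitals mark GAGGAA on either strand and TGANTCA, a core of AP-1 and MAF family factors, and the matches did not overlap.
Mrc1: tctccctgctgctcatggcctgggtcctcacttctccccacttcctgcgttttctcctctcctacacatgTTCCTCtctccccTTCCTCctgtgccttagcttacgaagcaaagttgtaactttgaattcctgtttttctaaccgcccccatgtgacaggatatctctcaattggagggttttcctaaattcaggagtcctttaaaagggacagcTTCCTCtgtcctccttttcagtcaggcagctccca
Cd68: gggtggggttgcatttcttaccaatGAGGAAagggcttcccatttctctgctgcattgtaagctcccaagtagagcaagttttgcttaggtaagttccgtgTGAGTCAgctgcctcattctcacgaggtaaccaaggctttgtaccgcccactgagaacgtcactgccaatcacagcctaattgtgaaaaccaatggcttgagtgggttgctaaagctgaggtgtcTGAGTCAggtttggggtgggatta

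Mrc1 held GAGGAA 3 times, at -180 to -175, -167 to -162 and -35 to -30, each on the opposite strand. Cd68 held it once, at -225 to -220, and held TGANTCA at -149 to -143 and at -24 to -18. TGANTCA was present in 6.75% of all windows and in no other window of these genes. Of the 6 genes with an entry, 5 held GAGGAA, found in 23.3% of all windows, with Axl (1 copy) among them and Cd163 not. The E-box CACGTG, found in 6.02% of all windows, was in none of the 6. Hmox1, Slc40a1, Serping1 and C1qa had no entry. Such matches describe the letters only.

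Cd163 encodes the receptor that takes up hemoglobin bound to haptoglobin. Its levels were 6.27, 6.45, 6.26 and 6.54 in control, cisplatin, astragalus and electro-acupuncture. They spanned 0.28, the least of the 10 genes, and no array stood out. The largest difference from control was 1.21-fold, in electro-acupuncture, and 25.8% of the genes compared were higher by more.

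Axl encodes a receptor tyrosine kinase that recognises dying cells through the bridging proteins Gas6 and protein S, and stromal cells express it too. It had 7.20 (control), 7.35 (cisplatin), 7.07 (astragalus) and 7.40 (electro-acupuncture). Its span was 0.33, and the arrays lay close together. The ligands stood further apart than the receptor. Gas6 was at 6.73, 7.24, 7.76 and 7.90, which is 2.25-fold above control in electro-acupuncture, and Pros1 (protein S) was at 6.70, 7.64, 7.68 and 7.73. Mertk, a related receptor of macrophages, was at 5.95, 6.20, 6.07 and 6.30.

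In the list of receptors and ligands for the clearance of dying cells, 16 of 20 measured genes were above control in electro-acupuncture (53.7% of all genes were) and 3 reached 2-fold (7.26% of all genes), Itgb3 (1.91, log2), Gas6 and Pros1. Itgb3 is the integrin beta chain of platelets as well as of phagocytes and stood at 10.50 in control against 12.38, 12.37 and 12.41. The list's median was 0.15 in electro-acupuncture, 0.12 in astragalus and 0.15 in cisplatin, each against control. Stab2, a scavenger receptor of sinusoidal endothelium, was at 6.40 in control and at 7.01, 7.24 and 7.17.

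Hmox1 encodes heme oxygenase 1, which opens the heme ring and frees its iron. Its levels were 8.05 (control), 9.19 (cisplatin), 8.92 (astragalus) and 9.76 (electro-acupuncture). All 3 treated arrays lay at least 0.87 above control, with electro-acupuncture on top and astragalus below cisplatin. The differences from control came to 2.20-fold for cisplatin, 1.83-fold for astragalus and 3.27-fold for electro-acupuncture. In electro-acupuncture 124 genes (0.721%) were higher than control by more than this. The lower position of astragalus against cisplatin, -0.27, was -0.45 after quantile normalization, -0.16 after median centring and -0.54 under loess.

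Slc40a1 encodes ferroportin, the iron exporter of macrophages, which red cell precursors also make. It had 8.76 (control), 8.75 (cisplatin), 9.06 (astragalus) and 9.15 (electro-acupuncture). Control and cisplatin were nearly level, and the other two were higher by 1.23-fold and 1.31-fold over control as deposited. The size of the astragalus difference rests on the scaling. Its 0.30 over control was 0.18 after quantile normalization, 0.42 after median centring and 0.05 under loess. For electro-acupuncture the 0.39 was 0.47, 0.35 and 0.36 in the same order. None of these differences reached 1.5-fold, and the 4 levels of Slc40a1 spanned 0.40 where those of Hmox1 spanned 1.71.

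Of 34 further heme and iron genes 28 were measured above the floor. In electro-acupuncture 17 were above control, 9 below and 2 equal, with none at least 2-fold different and a median of 0.18, where 53.7% of all genes were higher. In astragalus the count was 19 above and 8 below, against 55.3% of all genes higher, with a median of 0.29, and Lcn2 (lipocalin 2, an iron-siderophore binder of neutrophils) was 2.77-fold higher. Spic, the transcription factor of red pulp and iron-recycling macrophages, was at 6.15 (control), 6.46 (cisplatin), 6.30 (astragalus) and 7.0 (electro-acupuncture). It too was highest in electro-acupuncture, by 0.54 over cisplatin. Of the 28 genes 7 (25.0%) were highest there as deposited, against 21.8% of all genes. Blvrb, which reduces biliverdin and flavins and is abundant in red cells, was at 8.93, 9.38, 9.89 and 9.57, highest in astragalus. Ncoa4, which delivers ferritin to lysosomes, was at 10.04, 10.27, 10.90 and 10.40, also highest there. Tfrc, the transferrin receptor of red cell precursors, was at 15.31, 15.20, 15.75 and 15.49. Bach1, a heme-sensitive repressor of Hmox1, was at 8.79, 9.06, 9.10 and 8.79. Its listed values in control and electro-acupuncture coincide, which with 1 array each cannot show that the levels are equal. Fth1, the ferritin heavy chain, was listed at 15.10 on each of the arrays, and Ftl1 at 15.40 on the 3 treated arrays. The cause of such identical values was not tested, and they cannot be read as unchanged levels.

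The comparison of cisplatin with control asks what the drug group shows. Among the 10 genes 8 were higher and 2 lower (C1qc and, by 0.01, Slc40a1, which was 0.05 higher after quantile normalization), with a median of 0.195 against 0.01 over all genes. Of all genes 50.6% were higher. Hmox1 was the 1 member at least 2-fold different, where 2.97% of all genes were. Serping1 (0.81), Mrc1 (0.62) and Cd68 (0.53) followed.

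Astragalus was above cisplatin for 6 of 10 genes, against 56.8% of all genes, with medians of 0.07 for the 10 and 0.06 for all. Serping1 was the 1 gene at least 2-fold higher, at 2.04-fold, where 3.92% of all genes differed that much. It was under 2-fold after quantile normalization (0.84, log2) and under loess (0.78). Against control, astragalus was likewise higher for 6 of 10 as deposited, against 55.3% of all genes, and C1qc and Cd163 were also above control after quantile normalization (0.02 and 0.01) and median centring (0.05 and 0.11). There Serping1 was again alone at 2-fold or more, with a background of 8.81%. The median there was 0.30.

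Electro-acupuncture was above cisplatin for each of the 10 genes as deposited, against 52.5% of all genes, with a median of 0.63 against 0.02 over all genes, although Axl was level with cisplatin after median centring. Serping1 and C1qb, 2 of 10, were at least 2-fold higher, and 3.91% of all genes were at least 2-fold different. The cisplatin level of C1qb was under the floor, which leaves Serping1 as the 1 member called between levels above it. Against control all 10 were higher as deposited, where 53.7% of all genes were. The count at 2-fold or more was 5 of 10, or 4 without C1qb, whose control level was under the floor, and its background 7.26%. The median was 0.95 against 0.04. Setting the 2 treatments side by side, astragalus was below electro-acupuncture for all 10 genes as deposited (Slc40a1 was 0.07 above it after median centring), against 40.2% of all genes. C1qb alone passed 2-fold, with a difference of -1.27 from an astragalus level under the floor, where 1.52% of all genes were at least 2-fold different. Hmox1 (1.79-fold) and C1qc (1.67-fold) were next. The 6 comparisons share arrays, and the electro-acupuncture array enters 3 of them, so they are not independent of each other.

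**Figure D2:**
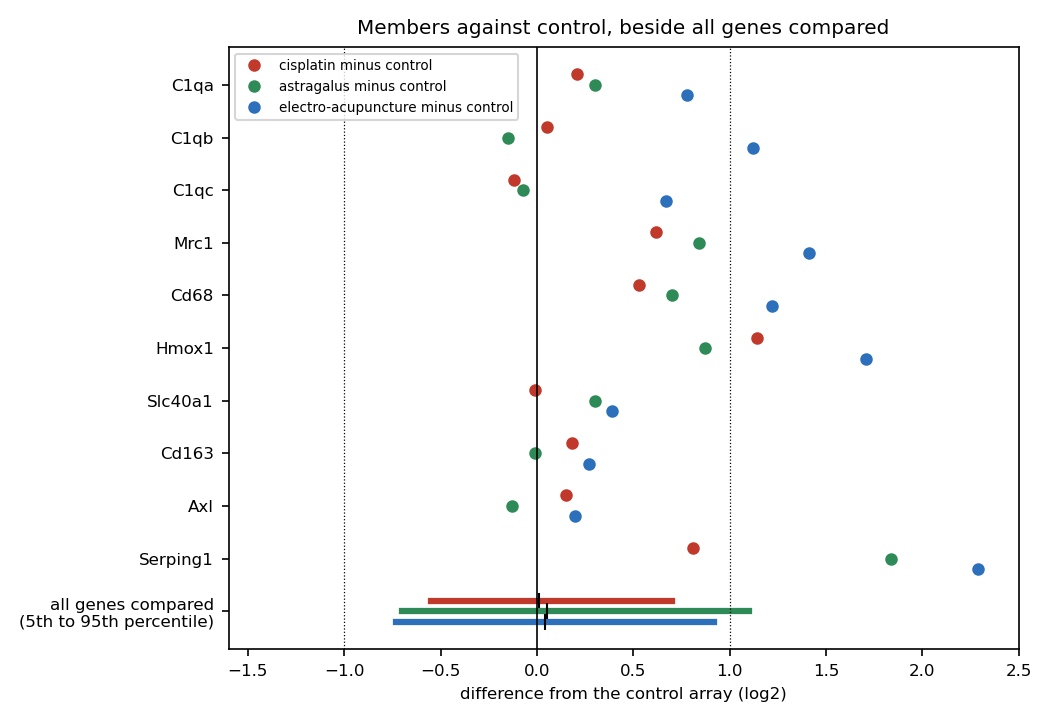
Log2 difference from the control array (x axis) of each of the 10 genes for cisplatin, astragalus and electro-acupuncture (1 point each); the bars give the 5th to 95th percentile of all 17197 genes compared, the ticks on them the median, and the dotted lines 2-fold. In electro-acupuncture C1qb, Mrc1, Cd68, Hmox1 and Serping1 lie past the dotted line, and C1qa, C1qc, Slc40a1, Cd163 and Axl lie within the bar.

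Other macrophage genes were set beside these. In the list of resident marrow macrophage genes 27 of 30 were measured above the floor. Of them 14 (51.9%) were highest in electro-acupuncture, 15 after quantile normalization and 10 (37.0%) after median centring, against 21.8%, 24.0% and 12.2% of all genes under the same scalings. Clec4f (5.33, 5.33, 5.02 and 5.39 in control, cisplatin, astragalus and electro-acupuncture) would not have reached the floor without its electro-acupuncture level. Nor would Fcgr1 (4.66, 5.35, 5.60 and 5.37), and counts that include these genes draw on that. Adgre1, the F4/80 antigen, was at 5.74 (control), 5.99 (cisplatin), 5.86 (astragalus) and 6.32 (electro-acupuncture). Siglec1, the sialic acid receptor of island macrophages, was at 5.49, 5.59, 5.58 and 5.83. Csf1r, the receptor for the macrophage growth factor, was at 6.14, 6.14, 6.26 and 6.36. These 3 lay near the floor and spanned less than 2-fold.

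Vcam1, an adhesion protein that island macrophages share with stroma and endothelium, was at 8.69 in control and at 9.91, 10 and 10.25 in cisplatin, astragalus and electro-acupuncture. Maf, a transcription factor of resident macrophages, was at 7.37, 7.83, 8.18 and 8.51. Ctsl, a lysosomal protease of many cells, was at 6.65, 7.62, 8.14 and 8.24. Vcam1, Maf and Ctsl were the list's 3 genes at least 2-fold above control in electro-acupuncture, where 7.26% of all genes were at least 2-fold different. In all 25 of 27 were higher, against 53.7% of all genes, with a median of 0.25. The cisplatin array had the same median above control, 0.25, with 21 higher, 4 lower and 2 equal, against 50.6% of all genes higher. In astragalus 18 were above control and 8 below, against 55.3% of all genes higher, with a median of 0.12. Electro-acupuncture was above cisplatin for 19 of 27, where 52.5% of all genes were higher, with a median of 0.16 and none at 2-fold.

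Lysosome genes, which Cd68 belongs with, were above control by medians of 0.60 in astragalus, 0.59 in electro-acupuncture and 0.35 in cisplatin, over 19 genes. The medians over all genes were 0.05, 0.04 and 0.01 in the same order. Of the 19, 8 (42.1%) were highest in electro-acupuncture as deposited, 9 (47.4%) after quantile normalization and 0 after median centring. The shares of all genes were 21.8%, 24.0% and 12.2%. Lamp1, a main protein of the lysosome membrane, was at 10.66 in control and at 11.71, 11.90 and 11.92. Ctsb, a protease also counted with the macrophage genes, was at 9.26, 9.82, 10.49 and 10.24. Tpp1, a peptidase, was at 8.30, 8.43, 9.33 and 9.03. Ctsb and Tpp1 were highest in astragalus, where Cd68 was not.

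**Figure D3:**
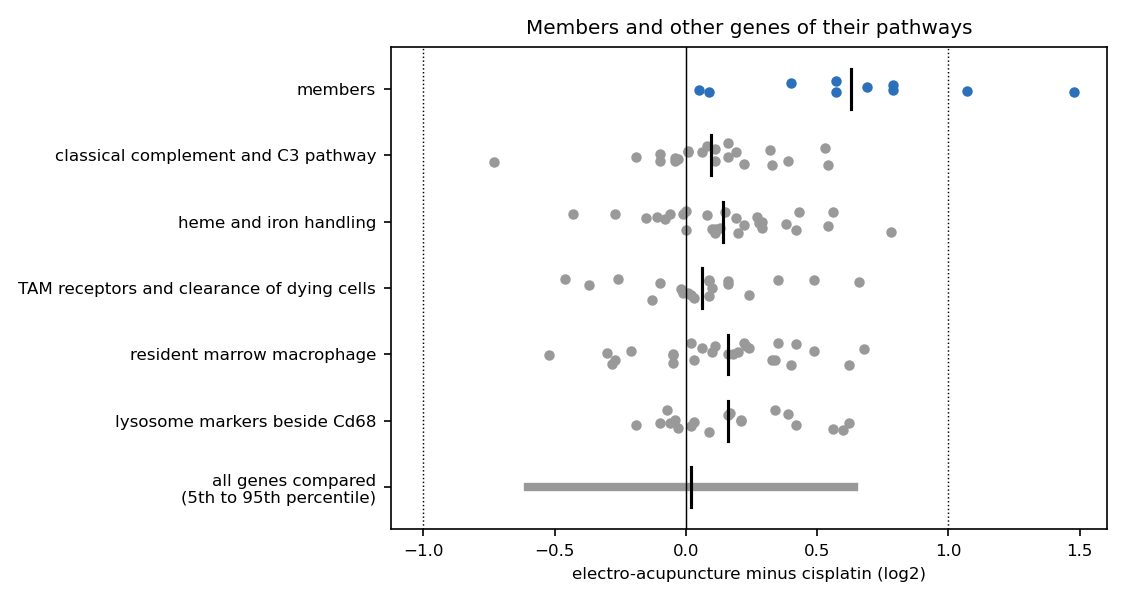
Log2 difference between electro-acupuncture and cisplatin (x axis) for the 10 genes (blue) and the other genes of their pathways above the floor (grey), with black bars for medians; the lowest line gives the 5th to 95th percentile of all genes compared. The medians are 0.63 for the 10 genes and 0.10, 0.14, 0.06, 0.16 and 0.16 for the lists from top to bottom.

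Markers of other marrow cells were read on the same arrays as summed linear signals, in the order control, cisplatin, astragalus and electro-acupuncture. The 8 sinusoidal endothelial genes, all above the floor, summed to 678, 896, 923 and 923. Vwf (7.42, 8.39, 8.22 and 8.26) added the most to the rise from control. Pecam1 (7.69, 7.45, 7.65 and 7.56) was below control on each treated array, and Emcn was below it in cisplatin (5.44 against 5.50). The other genes of this list were above control on each treated array. Stroma and bone genes, with 8 of 10 measured, summed to 3548, 25345, 15027 and 14260. Both sums were lowest in control, as were Mrc1, Cd68, Hmox1 and Serping1. The stroma markers did not share 1 order: Bglap, Sparc, Col1a1 and Col1a2, genes of bone and its matrix, were highest in cisplatin, Kitl and Pdgfrb in astragalus, and Cxcl12 (10.91, 12.46, 12.95 and 13.28) and Lepr (6.97, 8.13, 8.19 and 8.49), genes of the stroma around vessels, in electro-acupuncture. The latter pair had the same order of arrays as Mrc1, Cd68 and Serping1. The 10 monocyte genes summed to 91844, 68810, 123671 and 76156, with Nr4a1 under the floor. Ly6c2 (16.43, 15.99, 16.85 and 16.13) dominated that sum. The mean log2 levels of the monocyte list were 8.9, 8.89, 9.21 and 9.0. Of its 9 genes above the floor, 6 were above control and 3 below in electro-acupuncture. In cisplatin 4 were above control and 5 below. The 9 erythroid genes measured of 12 summed to 154064, 141631, 244910 and 168878. Osteoclast genes, 8 in all, summed to 757, 890, 967 and 865, with Calcr, Dcstamp and Ocstamp under the floor. These 3 sums were highest in astragalus, but the mean log2 level of the osteoclast list was highest in electro-acupuncture, at 6.23 against 5.86, 6.15 and 6.04. The part of such cells in the levels of the 10 genes was not tested. Neutrophil markers, 12 of 12 above the floor, had mean log2 levels of 14.37, 14.55, 15.03 and 14.72 and summed to between 2927026 and 3171420, a sum that S100a8 and S100a9 dominate, since both stood at the highest value in the data on each array. Dendritic cell markers, 8 of 9 measured, summed to between 714 and 927, with Flt3 and Xcr1 under the floor. B cell markers, 7 of 8 measured, summed to 4353 in control and to at most 2416 elsewhere, with Igll1 under the floor. Platelet markers (6 of 7 measured) and fat cell markers (5 of 6) were lowest in control, at 109279 and 462, against at least 562522 and 1037 elsewhere.

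**Figure D4:**
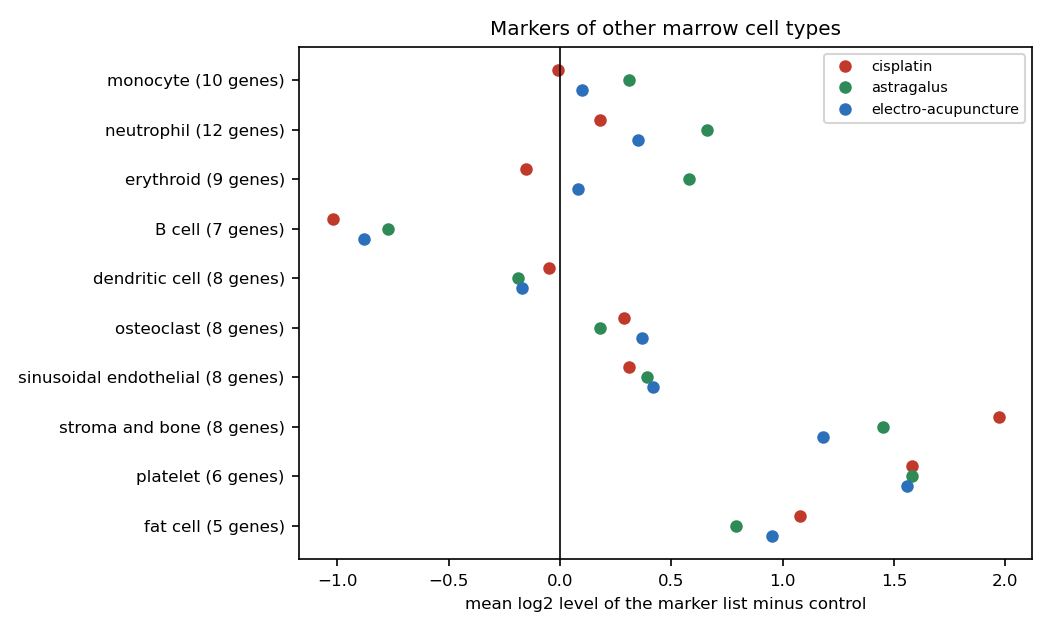
Mean log2 level of each marker list minus its mean in control (x axis) for cisplatin, astragalus and electro-acupuncture, with the number of genes measured. Neutrophil, osteoclast, sinusoidal endothelial, stroma, platelet and fat cell lists lie above 0 on each treated array, and B cell and dendritic cell lists lie below it.

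Genes whose profile over the 4 arrays was nearest to that of a member were sought among 11230 protein-coding genes, by the root mean square distance of levels centred on each gene's mean, for the 5 members that spanned at least 1. With 4 arrays many genes can come close. For Mrc1 they were Sfrp4 (a secreted Wnt inhibitor), Ubd (a ubiquitin-like protein) and Mgp (matrix Gla protein), at distances of 0.047, 0.057 and 0.068. For Cd68 they were Gpx3 (a secreted glutathione peroxidase), Erg28 (a scaffold of sterol synthesis) and Ubd, at 0.053, 0.057 and 0.064. The nearest to Hmox1 were Lpl (lipoprotein lipase), Tnc (the matrix protein tenascin C) and Cstb (a cathepsin inhibitor), at 0.121, 0.169 and 0.176. Serping1 was nearest to Psmb7 and Psma5, both proteasome subunits, and Gm12447, at 0.123, 0.127 and 0.125. C1qb was nearest to Defb39, Gm7579 and Krtap5-3, at 0.1, 0.107 and 0.124, and Defb39, a beta-defensin gene, stood at 6.05, 6.22, 6.12 and 7.14.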

How the data were processed

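The values are the authors' deposited log2 signals for 65956 transcript clusters on 4 arrays, made with Affymetrix Expression Console, per the submitters' processing notes (version, summary method and genome build: not given in the sources used here). A log2 scale is inferred from their range, 2.70 to 19.93. Of 32750 clusters in the platform's gene table, 31263 kept 1 gene after symbols were updated through RefSeq (GRCm38.p6, used for names and for the printed promoter windows) and 1487 held several and named none. For a gene with several clusters the one with the highest mean was used. Genes compared reached a mean of 5.235. Differences are between 2 arrays, counted at 2-fold, and no test was run. The members, gene lists and comparisons were chosen with earlier results of these data known. Named genes are all members, the 3 nearest profiles and up to 4 genes of each pathway list with the largest differences from control. A fixed set was also named (Adgre1, Siglec1, Vcam1, Csf1r, Fth1, Tfrc, Bach1, Spic, Mertk, Gas6). Alas2, Mpo and further genes of the pathway and marker lists were added, after their values were seen, where a sentence needed them. Alternatives were quantile normalization, median centring, loess (fraction 0.3), the mean over clusters, a 1.5-fold threshold and other floors. The counting step was tested on simulated data. Python 3.11.15 with pandas 2.3.3 and statsmodels 0.14.6 was used.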

Additional observations from a re-analysis of the deposited data

How the results depend on the processing

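Without replicate arrays a value was counted as altered when it moved by more than 0.1 (log2), or a count by more than 1.5 times. Each member has 1 cluster, so the mean over clusters altered none of its differences. Median centring shifted astragalus against electro-acupuncture over all genes from 0.06 to 0.22, and astragalus against cisplatin and against control to 0.17 each. Under it the members' median was 0.18 for astragalus minus cisplatin, 0.42 for astragalus minus control and -0.34 for astragalus minus electro-acupuncture, and 12.2% of all genes were highest in electro-acupuncture. For astragalus minus electro-acupuncture quantile normalization gave a median of -0.659 and 2 members at 2-fold, and loess -0.706 and 2 members. Serping1 was under 2-fold for astragalus minus cisplatin under both, leaving 0 members. With the 1.5-fold threshold 3 members counted for cisplatin minus control (11.4% of all genes), 5 for electro-acupuncture minus cisplatin (11.3%), 4 for astragalus minus control (21.1%) and 3 for astragalus minus electro-acupuncture (9.85%). Without C1qa, which lies under the floor, the median for electro-acupuncture minus control was 1.12. Under loess the heme and iron list had a median of 0.03 for electro-acupuncture minus control. The cause of these shifts was not tested. No member at least 2-fold different changed sign under any alternative run. The alternatives moved differences by far less than that size, so this outcome shows nothing about stability. The counts of arrays highest or lowest were chosen after seeing the data, as were their alternatives.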
